A study of Mus musculus with 11 samples.

Results

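The chains of the interferon receptors and the SOCS and CISH inhibitors of cytokine signaling were followed in 11 mammary tumors of mice. The members are 9 genes of the 26283 in the count table, taken by gene name: the receptor chains *Ifnar1*, *Ifnar2*, *Ifngr1*, *Ifngr2* and *Il10rb*, and the inhibitors *Socs1*, *Socs2*, *Socs3* and *Cish*. All 9 had a row, and all 9 were among the 19232 genes that passed the filter on low counts. Bulk RNA was sequenced from 6 PyMT *Pcbp1*–/– and 5 PyMT *Pcbp1*+/+ tumors. All animals were C57BL/6 mice of a line in which only females develop tumors, and carried the MMTV-PyMT oncogene, the polyomavirus middle T antigen under a mammary tumor virus promoter, together with MMTV-Cre. The PyMT *Pcbp1*–/– animals were *Pcbp1*(fl/fl) and lose the gene where Cre is active, in the mammary epithelium, and the PyMT *Pcbp1*+/+ animals were *Pcbp1*(wt/wt). *Pcbp1* was not measured by cell type in these bulk samples. The tumors came from animals 18 weeks old and were flash frozen, and the labels name 1 batch for all 11.

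The deposited estimated counts summed to 11708919, 13334560, 11239931, 13674718, 14092192 and 12937012 in PyMT *Pcbp1*–/– replicates 1 to 6 and to 10945798, 10543189, 11411776, 10975700 and 11198153 in PyMT *Pcbp1*+/+ replicates 1 to 5. Levels are given as the authors' CPM, a gene's counts scaled to the summed counts of its tumor. At these totals 3 counts, the limit that a count of 0 allows, correspond to between 0.213 and 0.285 CPM, which covers counting error only. Counts of the members ran from 19.0 for *Socs1* to 1892 for *Socs2*. Differences are log2 fold changes, PyMT *Pcbp1*–/– over PyMT *Pcbp1*+/+, from edgeR's quasi-likelihood test, with p adjusted by Benjamini-Hochberg over all 19232 genes tested and a threshold of 0.05. A first value in parentheses after a gene, where not otherwise named, is its log2 fold change.

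The targeted gene checked the labels. *Pcbp1* was at 19.5, 19.2, 28.1, 22.3, 15.4 and 33.6 CPM in knockout tumors and at 268, 271, 225, 219.5 and 259 CPM in wild-type tumors, so that every tumor lay on the side its label gives. It fell by 3.43 on the log2 scale (SE 0.19, edgeR adjusted p = 4.72e-06). The tissue label was checked on 14 luminal epithelial markers, all with a row, whose summed level lay between 1875 and 3121 CPM in knockout and between 2207 and 3396 CPM in wild-type tumors.

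Interferons signal through pairs of receptor chains. IFNAR1 and IFNAR2 form the receptor of type I interferons, IFNGR1 and IFNGR2 that of interferon gamma, and IL10RB is shared by the receptors of type III interferons and of interleukin-10 family cytokines. The chains are bound by JAK kinases that phosphorylate STAT transcription factors, and SOCS proteins and CISH, whose genes STATs induce, close the loop: SOCS1 and SOCS3 inhibit JAK kinases directly, and CISH and SOCS2 are best known as brakes on receptors that use STAT5, the STAT of prolactin signaling in the mammary gland.

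None of the 9 members passed the test between genotypes. By edgeR 0 members were lower and 0 higher, where 1.66% of all genes tested were lower, 0.608% higher and 2.27% either. At an unadjusted p under 0.05 there were 2 members, *Cish* and *Socs1*, both with lower means in knockout tumors. Of all genes tested 18.7% were under it, 2025 lower and 1576 higher, and the unadjusted counts of lists below stand beside this share. DESeq2, limma-voom and limma-trend called 0 members. Over all genes DESeq2 called 700 lower and 480 higher of 22639 tested, and limma-voom 1190 and 968 of 19232. With limma-trend on log2(CPM + 1) they were 228 and 92 of 19232. The counts of lists below by these tools stand beside these totals. The CPM of the groups overlapped for all 9, where 3.29% of all genes tested did not overlap. The median log2 fold change was -0.0062 over the 9 members and -0.00012 over all genes tested. It was 0.022 over the 5 receptor chains, from -0.021 to 0.27, and -0.30 over the 4 inhibitors, from -0.58 to 0.48.

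**Figure D1:**
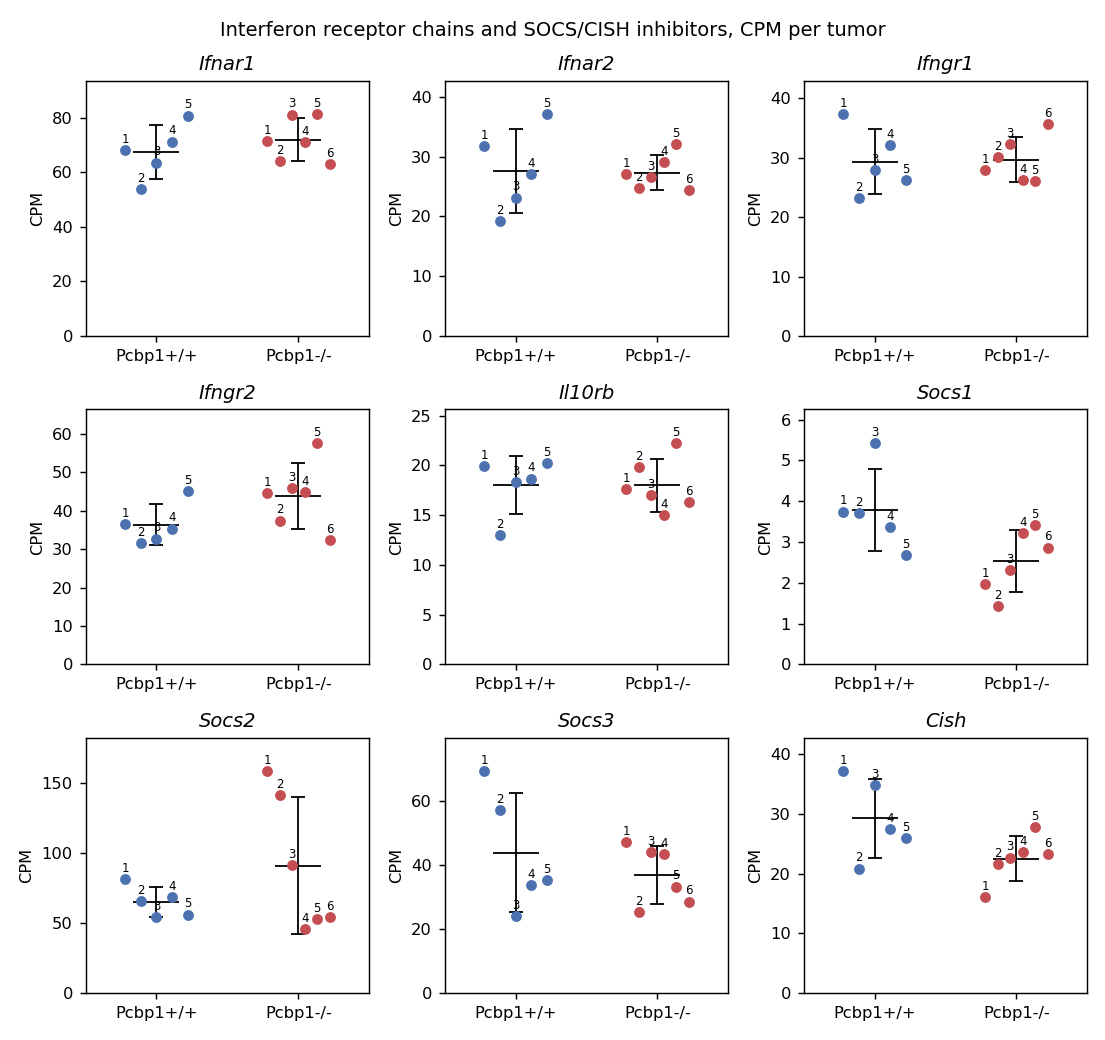
CPM of each of the 9 members in each tumor, wild-type in blue and knockout in red, numbered by replicate; the cross bar is the mean, the whiskers are 1 SD, and every axis starts at 0. The groups overlap in all 9 panels, and *Socs2* in knockout tumors runs from 45.4 to 159 CPM.

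*Ifnar1* (ENSMUSG00000022967.13), the type I chain bound by the kinase TYK2, lay between 62.9 and 81.2 CPM in knockout tumors, with a median of 71.1 CPM. In wild-type replicates 1 to 5 it was at 68.0, 53.7, 63.5, 71.2 and 80.7 CPM. Wild-type replicate 2 was the lowest of the 11 tumors, and 2 of 6 knockout tumors lay above the highest wild-type tumor, by less than 1 CPM. The log2 fold change of *Ifnar1* was 0.088 (SE 0.12, 95% interval -0.18 to 0.35, edgeR adjusted p = 0.737). It lay between 0.016 (without wild-type replicate 2) and 0.19 (without wild-type replicate 5) with a tumor left out.

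*Ifnar2* (ENSMUSG00000022971.18), the type I chain with the higher affinity for the ligand, lay between 24.4 and 32.1 CPM in knockout tumors, with a median of 26.8 CPM, and was at 31.8, 19.3, 23.1, 27.1 and 37.1 CPM in wild-type replicates 1 to 5. All 6 knockout tumors lay inside the wild-type range. The coefficient of variation was 10.6% in knockout and 25.4% in wild-type tumors. Its log2 fold change was -0.021 (SE 0.16, 95% interval -0.36 to 0.32, edgeR adjusted p = 0.958), an interval that allows a fold from 0.777 to 1.25.

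Within a tumor, the log2 ratio of *Ifnar1* to *Ifnar2*, on log2(CPM + 0.1), was 1.39 ± 0.11 (SD, n = 6) in knockout and 1.31 ± 0.18 (SD, n = 5) in wild-type tumors. The difference of 0.086 did not pass (exact permutation test over all arrangements, two-sided, p = 0.346, adjusted p = 0.357 over 3 ratios). With a tumor left out it lay between 0.033 (without wild-type replicate 1) and 0.13 (without wild-type replicate 2).

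*Ifngr1* (ENSMUSG00000020009.13), which binds interferon gamma, lay between 26.0 and 35.6 CPM in knockout tumors, with a median of 29.0 CPM. In wild-type replicates 1 to 5 it was at 37.3, 23.1, 27.9, 32.1 and 26.2 CPM. Here too all 6 knockout tumors lay inside the wild-type range. The log2 fold change of *Ifngr1* was 0.022 (SE 0.12, 95% interval -0.24 to 0.28, edgeR adjusted p = 0.941).

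*Ifngr2* (ENSMUSG00000022965.8), the partner that brings in JAK2, lay between 32.4 and 57.7 CPM in knockout tumors, with a median of 44.7 CPM. In wild-type replicates 1 to 5 it was at 36.5, 31.7, 32.8, 35.4 and 45.2 CPM. Of the knockout tumors, 2 of 6 lay above the highest wild-type tumor, replicate 5 by the most. Means of 43.8 ± 8.61 CPM (SD, n = 6) in knockout against 36.3 ± 5.33 CPM (SD, n = 5) in wild-type tumors gave the largest log2 fold change among the 5 receptor chains, 0.27 (SE 0.15, 95% interval -0.065 to 0.60, edgeR adjusted p = 0.374), which did not pass. It was 0.17 without knockout replicate 5.

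The log2 ratio of *Ifngr1* to *Ifngr2* ran from -1.14 in knockout replicate 5 to 0.13 in knockout replicate 6, and the wild-type range of -0.79 to 0.028 lay inside it. It was -0.55 ± 0.43 (SD, n = 6) in knockout and -0.32 ± 0.31 (SD, n = 5) in wild-type tumors, a difference of -0.23 that did not pass (exact permutation test, p = 0.342, adjusted p = 0.357). With a tumor left out that difference lay between -0.37 (without knockout replicate 6) and -0.11 (without knockout replicate 5).

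*Il10rb* (ENSMUSG00000022969.13), the chain shared with interleukin-10 family receptors, lay between 15.0 and 22.3 CPM in knockout tumors, with a median of 17.3 CPM, and was at 19.9, 13.0, 18.3, 18.7 and 20.3 CPM in wild-type replicates 1 to 5. Wild-type replicate 2 was the lowest of the 11 tumors, as for every other receptor chain, and knockout replicate 5 the only one above the wild-type range. The log2 fold change of *Il10rb* was -0.0062 (SE 0.14, 95% interval -0.31 to 0.30, edgeR adjusted p = 0.988).

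Of 6 other chains of these receptors and their relatives, 3 were tested and 1 was lower. *Ifnlr1*, which pairs with IL10RB to bind type III interferons, lay between 20.5 and 27.7 CPM in knockout tumors and was at 42.7, 46.8, 27.7, 39.5 and 26.6 CPM in wild-type replicates 1 to 5. Of the wild-type tumors only replicate 5 lay inside the knockout range, and replicate 3 lay just above it. Of the knockout tumors, 4 of 6 lay below the lowest wild-type tumor. *Ifnlr1* fell by 0.58 on the log2 scale (SE 0.13, edgeR adjusted p = 0.0391). The call was lost in 12 of 20 alternatives, among them leaving out any of knockout replicates 3 to 6 or wild-type replicates 1, 2 or 4, with adjusted p from 0.00394 to 0.0950 over all of them. The log2 ratio of *Ifnlr1* to *Il10rb*, chosen after the values were seen, was 0.44 ± 0.29 (SD, n = 6) in knockout and 1.00 ± 0.56 (SD, n = 5) in wild-type tumors and did not pass (exact permutation test, two-sided, p = 0.0563, not adjusted). It passed without wild-type replicate 3 (exact p = 0.0333) or replicate 5 (exact p = 0.0143), in a range up to 0.148.

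The genes of 4 receptor chains lie side by side on chromosome 16 of GRCm38, all on the plus strand. *Ifnar2* spans 91372783 to 91405589, *Il10rb* 91406164 to 91425834, *Ifnar1* 91485238 to 91507441 and *Ifngr2* 91547072 to 91565623, together 192841 bases, with 574 bases between *Ifnar2* and *Il10rb*. *Ifngr1* lies on chromosome 10, 19591949 to 19610229, plus strand. Within 250 kb of the cluster 14 genes were tested, 10 of them not members, with a median log2 fold change of 0.084. By edgeR 0 passed, with 0 lower and 2 higher at an unadjusted p under 0.05; DESeq2 called 0 lower and 1 higher, limma-voom 0 and 1, limma-trend 0 and 1. The gene those tools called is RP23-401H23.2, a processed pseudogene between *Ifnar1* and *Ifngr2*, at 39.4 CPM in knockout and 25.9 CPM in wild-type tumors (log2 fold change 0.60, edgeR adjusted p = 0.0566). Reads of a pseudogene can come from its parent gene, so that this value is uncertain. *Tmem50b*, next to *Ifngr2*, was at 0.44 (edgeR adjusted p = 0.139).

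**Figure D2:**
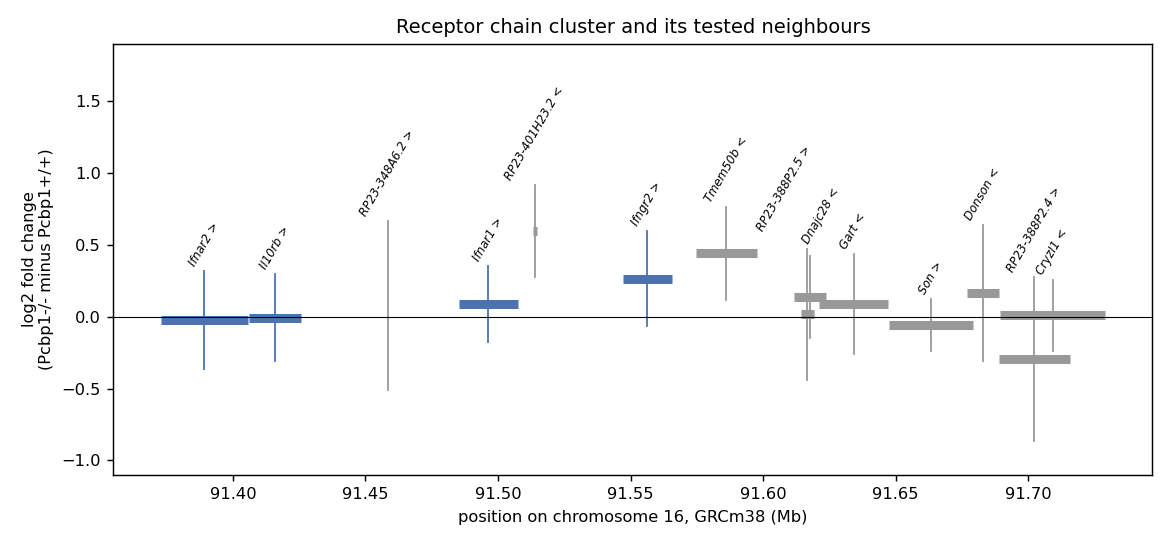
Log2 fold change of the 14 genes tested in and around the receptor cluster, at their GRCm38 positions on chromosome 16 in Mb; thick bars span each gene, thin lines are 95% intervals, blue marks members, and > or < gives the strand. By edgeR none of the 14 passed, and RP23-401H23.2 lies highest at 0.60.

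With each group's mean taken off, Pearson's r of log2(CPM + 1) across tumors lay between 0.53 and 0.85 for the 6 pairs of clustered chains and between -0.72 and 0.55 for the 30 other pairs of members, with medians of 0.73 and 0.024. Among clustered chains it was 0.85 for *Ifnar1* with *Ifnar2*, 0.85 for *Ifnar1* with *Ifngr2*, 0.77 for *Ifnar2* with *Ifngr2*, 0.69 for *Ifnar2* with *Il10rb*, 0.64 for *Ifnar1* with *Il10rb* and 0.53 for *Ifngr2* with *Il10rb* (n = 11). *Ifngr1*, on another chromosome, had an r of 0.071 with *Ifnar1*, 0.15 with *Ifnar2*, 0.29 with *Il10rb* and -0.34 with *Ifngr2*. These values describe tumors that share library preparation and scaling to CPM. Wild-type replicate 2 was the lowest of the 11 tumors for every clustered chain, and its part in these values was not tested. Over all 11 tumors, with group means kept, 13344 genes with a mean of at least 5 CPM were compared with each member. The most alike to *Ifnar1* were *Clstn1* (r = 0.94, rho = 0.95) and RP23-145N17.2 (r = 0.92, rho = 0.75), and the most alike to *Ifnar2* were *Slc41a2* (r = 0.95, rho = 0.95) and *Zfp81* (r = 0.92, rho = 0.89). Those of *Ifngr1* were *Izumo4* (r = 0.96, rho = 0.95) and *Tapt1* (r = 0.95, rho = 0.90), and those of *Ifngr2* were *Gnl1* (r = 0.97, rho = 0.91) and *Pak2* (r = 0.96, rho = 0.95). *Il10rb* was closest to *Mtus1* (r = 0.89, rho = 0.82) and RP23-380I13.2 (r = 0.88, rho = 0.76).

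Of the inhibitors, *Socs1* (ENSMUSG00000038037.5; chromosome 16, 10782240 to 10785536, minus strand), which binds and blocks JAK kinases, lay between 1.42 and 3.41 CPM in knockout tumors, with a median of 2.59 CPM. In wild-type replicates 1 to 5 it was at 3.75, 3.70, 5.43, 3.37 and 2.68 CPM. Knockout replicates 1, 2 and 3 lay below the lowest wild-type tumor, and none lay above the highest. Means of 2.53 ± 0.767 CPM (SD, n = 6) in knockout against 3.79 ± 1.01 CPM (SD, n = 5) in wild-type tumors gave a log2 fold change of -0.58 (SE 0.26, 95% interval -1.15 to -0.0087, edgeR adjusted p = 0.261). Without wild-type replicate 3, the tumor with the most *Socs1*, it was -0.37. The most alike genes were *Ifi47* (r = 0.91, rho = 0.90) and *Psmb8* (r = 0.90, rho = 0.90).

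*Socs1* is itself induced by interferons, and 17 interferon-stimulated genes were set beside it, of which 11 were lower and 0 higher, with 15 lower and 0 higher at an unadjusted p under 0.05; DESeq2 called 13 lower and 0 higher, limma-voom 15 and 0, limma-trend 10 and 0. Their median log2 fold change was -1.63, they were led by *Irf1* in knockout and *Irf7* in wild-type tumors, and the smallest p-values were those of *Irf7* (-2.89, edgeR adjusted p = 0.00194), *Ifit1* (-2.80, adjusted p = 0.00320), *Rsad2* (-3.05, adjusted p = 0.00337) and *Isg15* (-2.62, adjusted p = 0.00343). Summed, they were at 267, 176, 220.3, 201, 200.5 and 266 CPM in knockout replicates 1 to 6 and at 733, 619, 975, 748 and 296 CPM in wild-type replicates 1 to 5. The list was chosen with earlier results of these data known. The authors report several of its genes as lower, among them *Irf7*, *Ifit1*, *Rsad2* and *Isg15*, so that its counts do not describe interferon-stimulated genes at large. In bulk RNA, fewer cells of a type and less RNA per cell cannot be told apart.

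*Socs3* (ENSMUSG00000053113.3; chromosome 11, 117966079 to 117970047, minus strand), best known as the brake on interleukin-6 type cytokines, lay between 25.4 and 47.2 CPM in knockout tumors, with a median of 38.4 CPM. In wild-type replicates 1 to 5 it was at 69.4, 57.3, 24.0, 33.8 and 35.3 CPM. Wild-type tumors held both the highest and the lowest of the 11 values. The log2 fold change of *Socs3* was -0.23 (SE 0.24, 95% interval -0.76 to 0.30, edgeR adjusted p = 0.653), and limma-voom with sample quality weights gave the opposite sign, 0.12. It was -0.036 without wild-type replicate 1, -0.11 without wild-type replicate 2, -0.13 without knockout replicate 2 and -0.36 without wild-type replicate 3. The most alike genes were *Wnt5b* (r = 0.95, rho = 0.95) and *Cep170b* (r = 0.93, rho = 0.93).

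The log2 ratio of *Socs1* to *Socs3* was -3.84 ± 0.51 (SD, n = 6) in knockout and -3.43 ± 0.80 (SD, n = 5) in wild-type tumors. Wild-type replicate 3, with the most *Socs1* and the least *Socs3* of all 11 tumors, stood at -2.12. The difference of -0.40 did not pass (exact permutation test, p = 0.357, adjusted p = 0.357), and it was -0.075 without that tumor and -0.27 without knockout replicate 1.

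*Socs2* (ENSMUSG00000020027.18; chromosome 10, 95385362 to 95417180, minus strand), best known as the brake on growth hormone signaling, was at 159, 142, 91.7, 45.4, 53.1 and 54.5 CPM in knockout replicates 1 to 6 and at 81.4, 65.5, 54.2, 68.4 and 56.0 CPM in wild-type replicates 1 to 5. Knockout replicates 1, 2 and 3 lay above every wild-type tumor, and replicates 4 and 5 below every one. The coefficient of variation was 54.0% in the knockout and 16.8% in the wild-type group. Its log2 fold change of 0.48 (SE 0.30, 95% interval -0.18 to 1.14, edgeR adjusted p = 0.424) became 0.25 without knockout replicate 1 and 0.32 without replicate 2, and limma-voom with sample quality weights gave 0.14 and limma-trend on log2(CPM + 1) gave 0.32. Among the most alike genes was RP24-545C12.1 (r = 0.96, rho = 0.84), a processed pseudogene.

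Knockout replicates 1 and 2, with the most *Socs2*, had the least *Socs1* of the 11 tumors, 1.96 and 1.42 CPM, and within groups *Socs1* and *Socs2* had an r of -0.72 (n = 11). Knockout replicate 1 also had the lowest luminal marker sum of the 11 tumors, 1875 CPM, while replicate 2 was at 2525 CPM. The part of the marker sum in the *Socs2* values was not tested.

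*Cish* (ENSMUSG00000032578.7; chromosome 9, 107296026 to 107302784, plus strand), a target and brake of STAT5, lay between 16.1 and 27.7 CPM in knockout tumors, with a median of 23.0 CPM, and was at 37.2, 20.9, 34.9, 27.5 and 26.0 CPM in wild-type replicates 1 to 5. Knockout replicate 1 lay below the lowest wild-type tumor, and none lay above the highest. Means of 22.5 ± 3.79 CPM (SD, n = 6) in knockout against 29.3 ± 6.68 CPM (SD, n = 5) in wild-type tumors gave a log2 fold change of -0.38 (SE 0.17, 95% interval -0.75 to -0.014, edgeR adjusted p = 0.249). A pseudogene on the other strand, RP23-115A1.9, overlaps *Cish* and was at 0.0626 CPM in knockout and 0.0965 CPM in wild-type tumors. *Cish* was most alike to *Zbtb34* (r = 0.93, rho = 0.93) and *Lias* (r = 0.90, rho = 0.75), and within groups it had an r of 0.55 with *Socs1* and -0.45 with *Socs2* (n = 11).

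Divided by the length of the Ensembl canonical transcript, *Socs2* had the highest level of the members, 35.8 ± 19.3 CPM per kb (SD, n = 6) in knockout and 25.6 ± 4.30 CPM per kb (SD, n = 5) in wild-type tumors. In wild-type tumors *Ifnar1*, *Socs3* and *Ifngr1* followed at 16.5 ± 2.43, 16.5 ± 7.03 and 13.9 ± 2.60 CPM per kb, within their spread of each other. *Ifngr2*, *Ifnar2* and *Cish* came next at 9.65 ± 1.42, 8.40 ± 2.13 and 8.03 ± 1.83 CPM per kb, also within their spread. *Il10rb* was at 4.70 ± 0.765 and *Socs1* lowest at 1.16 ± 0.311 CPM per kb. This order depends on the length used, which for *Socs2* is 15258 bases over all annotated exons in place of 2540. Over all annotated exons, wild-type means were 12.3 for *Socs3*, 10.3 for *Ifngr1*, 8.30 for *Ifnar1*, 8.04 for *Ifngr2*, 7.39 for *Ifnar2*, 4.56 for *Cish*, 4.27 for *Socs2*, 2.94 for *Il10rb* and 1.12 for *Socs1* CPM per kb.

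**Figure D3:**
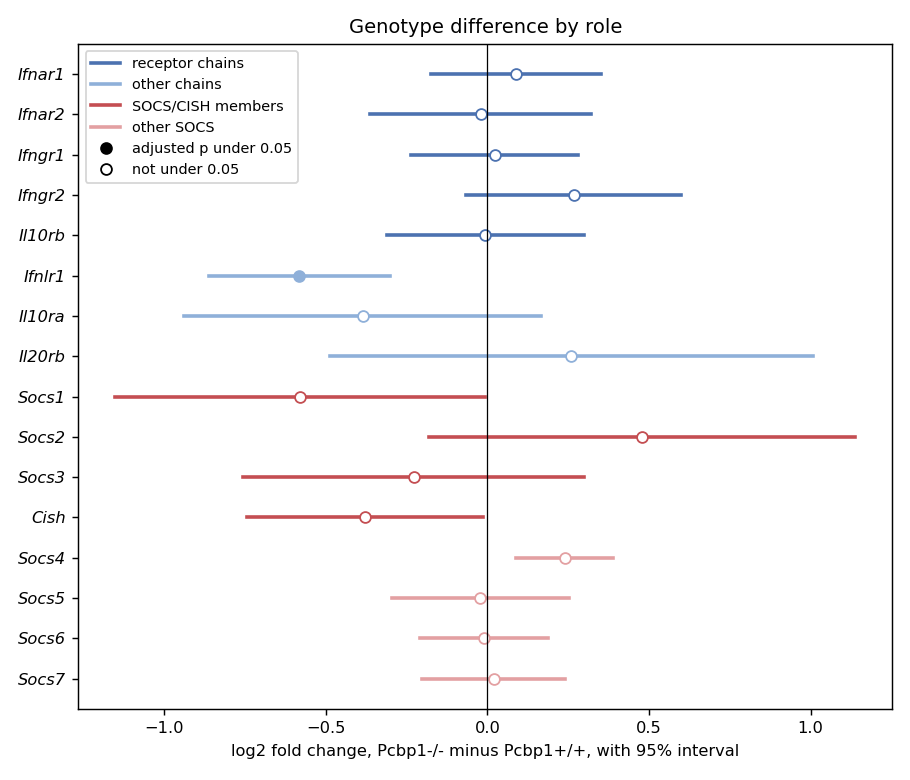
Log2 fold change of knockout over wild-type tumors, with 95% intervals, for the 9 members and the other receptor chains and SOCS genes tested; filled points have an edgeR adjusted p under 0.05. All 9 members are open points, and the 1 filled point is *Ifnlr1*.

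Of 28 interferon genes 25 had no row in the table used here, and only *Ifnk* was tested, at -0.16 (edgeR adjusted p = 0.798), between -0.31 (without knockout replicate 3) and -0.029 (without knockout replicate 5) with a tumor left out. Of 12 JAK-STAT genes 11 were tested (median log2 fold change -0.16) and 2 were lower, with 5 lower and 0 higher at an unadjusted p under 0.05; DESeq2 called 5 lower and 0 higher, limma-voom 5 and 0, limma-trend 2 and 0. Those edgeR called were *Stat2* (-1.42, edgeR adjusted p = 0.0112) and its partner *Irf9* (-0.85, adjusted p = 0.0254), which carry the type I signal to DNA. They lost the call in 1 of 20 and 6 of 20 alternatives, and are also among the interferon-stimulated genes above.

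The other SOCS genes, *Socs4* to *Socs7*, were tested (median log2 fold change 0.0046) and by edgeR 0 of 4 passed, with 0 lower and 1 higher at an unadjusted p under 0.05; DESeq2 called 0 lower and 1 higher, limma-voom 0 and 1, limma-trend 0 and 0. *Socs4* lay between 74.9 and 83.7 CPM in knockout and between 58.3 and 74.5 CPM in wild-type tumors, without overlap (log2 fold change 0.24, SE 0.069, edgeR adjusted p = 0.0944). Of 8 partners of the SOCS box, the ubiquitin ligase arm of these inhibitors, 6 were tested (median log2 fold change 0.20) and 0 passed, *Rbx1* with the smallest p (0.32, edgeR adjusted p = 0.111), with 0 lower and 1 higher at an unadjusted p under 0.05; DESeq2 called 0 lower and 0 higher, limma-voom 0 and 1, limma-trend 0 and 0.

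Of 16 genes listed as other negative regulators of interferon signaling 2 were lower, with a median log2 fold change of -0.073 over the list. These were *Isg15* (-2.62, edgeR adjusted p = 0.00343) and *Usp18* (-1.63, adjusted p = 0.0309), and both are also among the interferon-stimulated genes above. *Usp18*, which binds IFNAR2 and restrains the receptor, lost the call in 10 of 20 alternatives. At an unadjusted p under 0.05, 4 were lower and 4 higher. DESeq2 called 2 lower and 0 higher, limma-voom 2 and 0, limma-trend 1 and 0. Of 12 genes of receptor turnover (median log2 fold change -0.026) 0 passed, *Btrc*, part of the ubiquitin ligase that marks IFNAR1 for uptake, with the smallest p (-0.36, edgeR adjusted p = 0.0978), with 1 lower and 1 higher at an unadjusted p under 0.05; DESeq2 called 0 lower and 1 higher, limma-voom 1 and 1, limma-trend 0 and 0.

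Of 22 receptors for cytokines that induce SOCS genes 19 were tested (median log2 fold change -0.21) and 2 were lower, *Csf2ra*, the GM-CSF receptor chain (-0.95, edgeR adjusted p = 0.00728, lost in 1 of 20 alternatives), and *Osmr*, the oncostatin M receptor chain (-0.63, adjusted p = 0.0367, lost in 11 of 20), with 3 lower and 0 higher at an unadjusted p under 0.05; DESeq2 called 2 lower and 0 higher, limma-voom 3 and 0, limma-trend 1 and 0. Of 21 such cytokines 5 were tested (median log2 fold change -0.11) and 0 passed, *Il5* with the smallest p (1.30, edgeR adjusted p = 0.227, and 0.55 with limma-trend on log2(CPM + 1)), with 0 lower and 1 higher at an unadjusted p under 0.05, and 0 by DESeq2, limma-voom and limma-trend. Of 21 STAT3 and STAT5 targets 19 were tested (median log2 fold change -0.069) and 2 were lower, *Osmr* and the survival gene *Bcl2l1* (-0.46, edgeR adjusted p = 0.0196), whose call was lost in 7 of 20 alternatives, with 5 lower and 1 higher at an unadjusted p under 0.05; DESeq2 called 3 lower and 0 higher, limma-voom 4 and 1, limma-trend 0 and 0.

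Cell type markers were read in the same fit, with sums as mean ± SD over 6 knockout and then 5 wild-type tumors. Of 14 luminal markers (median log2 fold change -0.069, sum 2652 ± 426 and 2838 ± 488 CPM, led by *Cldn3* in knockout and *Kit* in wild-type tumors) 0 passed, *Muc1* with the smallest p (-0.99, edgeR adjusted p = 0.0880, and 0.0292 without wild-type replicate 2), with 2 lower and 0 higher at an unadjusted p under 0.05; DESeq2 called 1 lower and 0 higher, limma-voom 1 and 0, limma-trend 0 and 0. Of 13 macrophage markers (median log2 fold change 0.23, sum 545 ± 93.6 and 511 ± 135 CPM, led by *Lyz2* in knockout and *Cd14* in wild-type tumors) 1 was lower, *Cd14* (-1.19, edgeR adjusted p = 0.0481), a call lost in 14 of 20 alternatives and at -0.70 with limma-voom, with 1 lower and 2 higher at an unadjusted p under 0.05; DESeq2 called 1 lower and 1 higher, limma-voom 0 and 1, limma-trend 0 and 1. Fold changes of 11 of the 13 macrophage markers were above 0, and *Lyz2* was at 193 CPM in knockout and 94.4 CPM in wild-type tumors (1.02, edgeR adjusted p = 0.0657), against 80.4 and 186 CPM for *Cd14*. Of 8 adipocyte markers 7 were tested (median log2 fold change -0.80, sum 42.0 ± 33.1 and 64.0 ± 56.1 CPM, led by *Lpl* in knockout and *Plin4* in wild-type tumors, with *Adipoq*, *Cidec* and *Retn* at 0 in some tumors) and 0 passed, *Plin4* with the smallest p (-0.80, edgeR adjusted p = 0.409, and -0.29 without wild-type replicate 3), with 0 lower and 0 higher at an unadjusted p under 0.05; DESeq2 called 0 lower and 0 higher, limma-voom 1 and 0, limma-trend 0 and 0. The gene limma-voom called was *Plin4*, at -1.53 (adjusted p = 0.0484).

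For basal epithelium and T cells edgeR, DESeq2, limma-voom and limma-trend called 0 of 8 and 0 of 5 markers tested, each with 1 lower at an unadjusted p under 0.05. Basal markers (median log2 fold change -0.12, 5 below 0 and 3 above) summed to 345 ± 117 and 407 ± 304 CPM, led by *Oxtr*, with the smallest p for *Krt14* (-2.42, edgeR adjusted p = 0.160), which was at -0.60 without wild-type replicate 2 and -0.56 with limma-voom. The 12 T cell markers, of which the 5 tested had a median log2 fold change of -0.21, summed to 9.75 ± 2.07 and 11.6 ± 2.73 CPM, led by *Foxp3* (edgeR adjusted p = 0.254), with *Cd3d*, *Cd8b1*, *Cd2* and *Cd5* at 0 in some tumors. Estimated counts of *Foxp3* were not whole in any tumor, and whether all of its reads come from that gene was not tested. The 4 tools called 0 of 8 endothelial, 9 fibroblast, 2 NK cell and 1 neutrophil markers tested, with 0 at an unadjusted p under 0.05. Endothelial markers (median log2 fold change -0.18) summed to 70.2 ± 14.8 and 80.6 ± 15.5 CPM, led by *Cdh5*, with the smallest p for *Kdr* (-0.35, edgeR adjusted p = 0.394), and fibroblast markers (median log2 fold change 0.18) to 714 ± 198 and 593 ± 168 CPM, led by *Col1a1*, with the smallest p for *Col1a2* (0.35, adjusted p = 0.388, and 0.23 with limma-voom). The 7 NK cell markers, of which the 2 tested had a median log2 fold change of 0.37, summed to 4.70 ± 1.76 and 4.53 ± 1.64 CPM, led by *Prf1* (edgeR adjusted p = 0.662), with *Ncr1*, *Klrd1* and *Klre1* at 0 in some tumors, and the 7 neutrophil markers to 2.90 ± 1.21 and 3.69 ± 2.89 CPM, led by *Csf3r*, which alone was tested (-0.34, adjusted p = 0.683) and lay between -0.54 (without wild-type replicate 4) and -0.093 (without wild-type replicate 2) with a tumor left out, with *S100a9* and *Cxcr2* at 0 in some tumors and 3 without a row in the table used here. Of 7 B cell markers 0 passed the filter on low counts, and they summed to 1.79 ± 1.53 and 2.69 ± 2.10 CPM, led by *Jchain*, with 4 without a row in the table used here, of which *Igj* is an older symbol of *Jchain*. Wild-type replicate 1 held 916 CPM of basal markers, and without it the means were 345 and 280.0 CPM, the other way round. Tumors were left out of the sums after the data were seen, and the order of the means also turned for macrophage markers without wild-type replicate 5, adipocyte markers without replicate 3 and neutrophil markers without replicate 2. That of NK cell markers turned without knockout replicate 6 or wild-type replicates 2 or 5. The part of these cell types in the values of the members was not tested.

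The promoters of 3 inhibitors are shown because STATs, which the receptors activate, are known to act on these genes. RefSeq promoters (GRCm38.p6, 300 bases from 250 before the start RefSeq gives a gene) matched 7 of 9 members, all but *Socs2* and *Il10rb*. TTCNNNGAA, the core letters of STAT elements and the same on both strands, was in 4 of the 7, those of *Ifnar1*, *Ifnar2*, *Socs3* and *Cish*, and in 8.30% of 32851 promoters. GAAA, any 2 bases and GAAA again, letters of interferon response elements, was searched on both strands and was in that of *Socs1* and in 3.44% of promoters. Capitals mark the matches, each sequence reads 5′ to 3′ on the gene's strand, and a match describes these letters only. The RefSeq start lies 633 bases inside the deposited span of *Cish* and 681 bases inside that of *Socs3*, so that both windows lie within those spans. The promoter of *Cish* (chr9:107296409-107296708, plus strand) has matches that start at 107296659 and 107296670, that of *Socs3* (chr11:117969317-117969616, minus strand) has a match from 117969512 to 117969520, and that of *Socs1* (chr16:10785487-10785786, minus strand) has 2 that overlap, from 10785604 to 10785619.
Cish: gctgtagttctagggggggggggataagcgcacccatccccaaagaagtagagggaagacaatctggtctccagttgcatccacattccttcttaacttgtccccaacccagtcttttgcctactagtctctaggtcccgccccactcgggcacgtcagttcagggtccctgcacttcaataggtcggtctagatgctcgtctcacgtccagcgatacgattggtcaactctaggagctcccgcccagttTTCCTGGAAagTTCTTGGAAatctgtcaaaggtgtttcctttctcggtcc
Socs3: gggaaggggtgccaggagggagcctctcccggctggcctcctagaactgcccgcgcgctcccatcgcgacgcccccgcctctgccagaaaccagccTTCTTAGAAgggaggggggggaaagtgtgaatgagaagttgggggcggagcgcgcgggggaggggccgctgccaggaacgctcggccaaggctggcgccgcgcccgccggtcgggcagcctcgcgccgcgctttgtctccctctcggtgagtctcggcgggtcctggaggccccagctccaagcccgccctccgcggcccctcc
Socs1: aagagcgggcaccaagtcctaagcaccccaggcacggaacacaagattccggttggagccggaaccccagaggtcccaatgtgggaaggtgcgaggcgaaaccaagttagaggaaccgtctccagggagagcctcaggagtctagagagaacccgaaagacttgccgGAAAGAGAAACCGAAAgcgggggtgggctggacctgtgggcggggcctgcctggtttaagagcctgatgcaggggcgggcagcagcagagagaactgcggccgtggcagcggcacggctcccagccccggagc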

How the data were processed

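RNA of 6 knockout and 5 wild-type tumors was sequenced by the authors, and the submitters' processing notes name FastQC, Bowtie2, Partek and GRCm38; the annotation version and the counting rule are not given in the sources used here. The authors deposited estimated counts per gene, not normalized, of which between 18.1% and 19.8% per tumor are not whole, with a lowest row total of 10. They also deposited CPM, each estimated count scaled to the total of its column. Deposited stop positions lie 1 past a gene's end, so that ends were taken 1 base earlier.

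The estimated counts, rounded, were tested in R 4.3.3 with edgeR 4.0.16 (TMM factors, filterByExpr, quasi-likelihood, genotype the only term). Each standard error was derived from the fitted fold change with its F value. Ratios used exact permutation tests. Tables were made with pandas 2.3.3 and numpy 2.4.6, and the fitting code was tested on simulated data. The members and lists were chosen with earlier results of these data known. Named genes were all members and *Pcbp1*; of each list, for its fold change, the genes with adjusted p under 0.05, at most 4 by p, or else the gene with the smallest p; the 2 genes most alike to each member; and genes within 250 kb of the receptor cluster. A gene that this rule names is not reported here. Also named are the most abundant gene in each group of each marker list and of the interferon-stimulated genes, and genes at 0 or without a row, and *Lyz2* was given a fold change after its values were seen. The ratio of *Ifnlr1* to *Il10rb* was chosen after seeing the data.

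Other settings were DESeq2 1.42.0; edgeR with library sizes alone, with upper-quartile factors, without a filter, or with a filter of 1 CPM in 5 tumors; limma 3.58.1 as voom with sample quality weights and as trend with a pseudocount of 1 or 0.1 CPM; each tumor left out in turn; and a block for the replicate number. The labels give 1 batch for all tumors. The labels name separate tumors and no source states that each came from a different animal, so that p-values measure the spread between these samples. Transcript lengths came from GENCODE for GRCm39, matched by Ensembl identifier, and no coordinates were taken from it.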

Additional observations from a re-analysis of the deposited data

Results flagged for a closer look

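Among 100 groups of values searched, 9 held a tumor whose gap to its nearest neighbour was large against the range of its group; by chance about 1 in 20 independent groups would, and these groups share tumors and genes. Among the members, *Il10rb* in PyMT *Pcbp1*+/+ replicate 2 was at 13.0 CPM, with the next tumor at 18.3 CPM. The log2 ratio of *Ifnar1* to *Ifnar2* was 1.60 in PyMT *Pcbp1*–/– replicate 3, with the next at 1.40, and the log2 ratio of *Ifnlr1* to *Il10rb* was -0.12 in PyMT *Pcbp1*–/– replicate 5, with the next at 0.42.

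By the same rule PyMT *Pcbp1*+/+ replicate 5 stood apart in 3 genes, *Irf9* at 39.5 CPM with the next tumor at 73.6 CPM, *Ifit1* at 21.6 CPM with the next at 75.0 CPM, and *Kdr* at 8.04 CPM with the next at 13.1 CPM. This tumor was also the lowest of the wild-type group for *Irf7*, *Stat2*, *Rsad2*, *Usp18* and *Isg15*. Its summed interferon-stimulated genes were at 296 CPM, with the next wild-type tumor at 619 CPM. *Krt14* was at 277 CPM in PyMT *Pcbp1*+/+ replicate 2, with the next tumor at 47.6 CPM. Summed B cell markers were at 4.87 CPM in PyMT *Pcbp1*–/– replicate 6, with the next at 1.54 CPM, and summed adipocyte markers at 162 CPM in PyMT *Pcbp1*+/+ replicate 3, with the next at 51.8 CPM.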

How the results depend on the processing

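In all 20 alternatives 0 members passed the threshold in each direction, and the smallest adjusted p of a member was 0.0736, for *Cish* with limma-voom. Of 180 fold changes of members under alternatives, 155 kept their direction and 25 changed sign, none past the threshold, the largest of these 0.14 in size. The cause was not tested. *Ifnar2* was at 0.038 with limma-voom, 0.011 and 0.012 with limma-trend on log2(CPM + 1) and log2(CPM + 0.1), and between -0.13 and 0.14 with a tumor left out. *Ifngr1* was at -0.044 with limma-voom and between -0.051 and 0.093 with a tumor left out. *Il10rb* was at 0.0026 with DESeq2, 0.0045 with no filter, and 0.0025 and 0.0030 with the limma-trend settings. It was at -0.12 with limma-voom, the sign of the main fit, and between -0.10 and 0.064 with a tumor left out. *Socs3* was at 0.12 with limma-voom.

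Over all genes, 319 were lower and 117 higher, the latter 26.8% of the calls. DESeq2 gave 700 and 480 (40.7% higher), limma-voom 1190 and 968 (44.9%), and limma-trend on log2(CPM + 1) 228 and 92 (28.8%). With a tumor left out 144 to 389 were lower and 41 to 187 higher. The log2 ratio of *Ifnlr1* to *Il10rb*, chosen after seeing the data, was between -0.72 and -0.35 with a tumor left out. The 3 other ratios kept their sign and stayed above the threshold in every alternative.

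No label pairs the tumors by replicate number, and the values showed no clear pairing. Deviations of same-numbered tumors correlated at 0.134, 0.0867, -0.079, -0.144 and 0.293 for numbers 1 to 5, and 2 of 5 knockout tumors correlated best with their own number. So few correlations, with no reference beside them, cannot settle whether equal numbers mark a pair. The replicate block, fitted on 10 tumors, called 118 genes lower and 42 higher, and gave 0.032 for *Ifnar2*, -0.037 for *Ifngr1* and 0.018 for *Il10rb*. Counts were lowest for *Socs1*, 19.0 to 62.0, and the part of counting error in its spread was not tested.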
